A study of Mus musculus with 72 samples.

Results

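Trem2, Tyrobp and Spi1 are 3 of the 1266 genes measured in this series, taken by their symbols in the deposited table. RNA of the cortex of 36 mice aged 7.5 months was counted with the NanoString nCounter Glial and Neuropathology panels, which read barcoded probes without amplification, and each mouse has 1 record per panel. All 36 mice carried the 5xFAD transgenes, mutant human genes of familial Alzheimer's disease under a neuronal promoter that cause early amyloid plaques. The groups were 6 females and 6 males each of M28L_5xFAD mice, which also carry the M28L variant of Plcg2, of P522R_5xFAD mice, which also carry the P522R variant, and of 5xFAD mice with neither variant. The labels used here give no zygosity for the variants, and Plcg2 itself and mice without 5xFAD were not analysed here.

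TREM2 is a lipid-sensing receptor on the surface of microglia, the macrophages of the brain. It has no signalling tail of its own and pairs with the adaptor DAP12, encoded by Tyrobp, whose tyrosine motif is phosphorylated when the receptor binds its ligand and then recruits the kinase SYK, which leads to phospholipase C gamma 2, the product of Plcg2. Spi1 encodes PU.1, the transcription factor on which the identity of macrophages and microglia depends. TREM2 and DAP12 are known for the response of microglia to plaques. Spi1 lies on chromosome 2, 91082374 to 91115759, Tyrobp on chromosome 7, 30413782 to 30417582, and Trem2 on chromosome 17, 48346401 to 48352276 (RefSeq genes, GRCm38.p6).

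The RefSeq promoter table matched 1 of the 3 genes. The 250 bases before the start of Trem2, on the plus strand at chr17:48346151-48346400 of GRCm38.p6, are shown because Trem2 and the gene of PU.1 are described together below. Capitals mark the match to the core of a PU box, GAGGAA, read on the other strand as TTCCTC.

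Trem2: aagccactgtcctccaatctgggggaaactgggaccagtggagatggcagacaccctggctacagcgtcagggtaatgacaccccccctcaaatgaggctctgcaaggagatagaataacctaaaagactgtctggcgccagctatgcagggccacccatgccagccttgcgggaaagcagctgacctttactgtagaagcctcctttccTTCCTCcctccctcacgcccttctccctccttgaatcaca

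The match began 40 bases before the start, and the search covered both strands. Of 32851 promoter windows of this length, 7639, or 23.3%, hold the same letters, so the match describes the sequence and does not show a binding site.

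All 3 genes belonged to the 757-gene panel of the 2 panels, so a scaling factor of that panel cancels when they are compared within a mouse. Recovered totals on this panel were 921565 to 1957325 counts per mouse and followed sex and genotype. They were 921565 to 1176360 in M28L_5xFAD females, 1295271 to 1957325 in P522R_5xFAD females, 953461 to 1239109 in 5xFAD females, and 1428825 to 1800708 in the 18 males. The labels name no run, so sex, the P522R genotype and a difference between runs cannot be told apart. Defining markers of neurons, astrocytes, oligodendrocytes, microglia and endothelium were all above 20 counts in every mouse, as cortex should show. Of 10 markers of peripheral myeloid cells and border macrophages 2 were measured, Ccr2 at 4 to 30 counts and Cd163 at 8 to 58 counts. The summed linear level of these 2 was 25.1 to 70.6 in M28L_5xFAD mice, 36.8 to 66.0 in P522R_5xFAD mice and 17.3 to 77.1 in 5xFAD mice, and the part of such cells in the results was not tested.

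Trem2 was read at 241 to 889 counts per mouse, Tyrobp at 1040 to 3228 and Spi1 at 86 to 221. Probes of different genes differ in efficiency, so these counts do not rank the genes. The spread between mice of a group, as a residual SD of the log2 value, was 0.33 for Trem2, 0.31 for Tyrobp and 0.19 for Spi1, against a median of 0.17 over all genes. Counting error alone gives an SD of 0.07 for Trem2, 0.04 for Tyrobp and 0.13 for Spi1 on the same scale, so counting takes up a larger part of the spread of Spi1.

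Trem2, Tyrobp and Spi1 all fell in M28L_5xFAD mice against 5xFAD mice. Averaged over the sexes, Tyrobp was 1.37-fold lower, Trem2 1.35-fold lower and Spi1 1.25-fold lower in M28L_5xFAD cortex. In this comparison 10.3% of the 1266 genes were called (limma, adjusted p under 0.05), 71 of them lower, and the median of all genes was 0.00. In bulk cortex, fewer microglia and less of these RNAs per microglial cell cannot be told apart.

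Trem2, the receptor gene, had deposited log2 values with a lowest, median and highest of 8.44, 8.99 and 9.06 in M28L_5xFAD females, against 8.79, 9.34 and 9.70 in 5xFAD females. In males the values were 8.22, 8.57 and 9.11 in M28L_5xFAD mice and 8.76, 9.01 and 9.38 in 5xFAD mice. The groups overlapped in both sexes, with 2 of 6 M28L_5xFAD females and 4 of 6 males below every 5xFAD mouse of their sex. The log2 difference was -0.43 ± 0.12 (SE, 12 mice each, 95% interval -0.68 to -0.18), with a limma adjusted p of 0.0227, and 11 of 12 M28L_5xFAD mice lay under the 5xFAD mean of their sex.

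Tyrobp, the adaptor gene, had log2 values of 10.56, 10.77 and 11.31 in M28L_5xFAD females, against 10.97, 11.31 and 11.58 in 5xFAD females. In males they were 9.85, 10.26 and 10.70 in M28L_5xFAD mice and 10.47, 10.72 and 10.90 in 5xFAD mice. Animal 20 among the M28L_5xFAD females sat at the level of the 5xFAD females, and 9 of the 12 M28L_5xFAD mice, 4 females and 5 males, were below every 5xFAD mouse of their sex. The log2 difference was -0.45 ± 0.12 (SE, 12 mice each, 95% interval -0.69 to -0.22), with a limma adjusted p of 0.00862, and 11 of 12 M28L_5xFAD mice lay under the 5xFAD mean of their sex.

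Spi1, the transcription factor gene, had log2 values of 6.82, 6.97 and 7.09 in M28L_5xFAD females, against 7.19, 7.33 and 7.51 in 5xFAD females. In males they were 6.69, 7.08 and 7.21 in M28L_5xFAD mice and 7.14, 7.25 and 7.49 in 5xFAD mice. The female groups did not overlap, and in males 5 of 6 M28L_5xFAD mice were below every 5xFAD mouse. How large a share of all genes separates these groups in this way is not given here. The log2 difference was -0.33 ± 0.08 (SE, 12 mice each, 95% interval -0.48 to -0.17), with a limma adjusted p of 0.00416, and 12 of 12 M28L_5xFAD mice lay under the 5xFAD mean of their sex. Its difference was the smallest of the 3 and its adjusted p the lowest, beside its smaller spread.

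**Figure D1:**
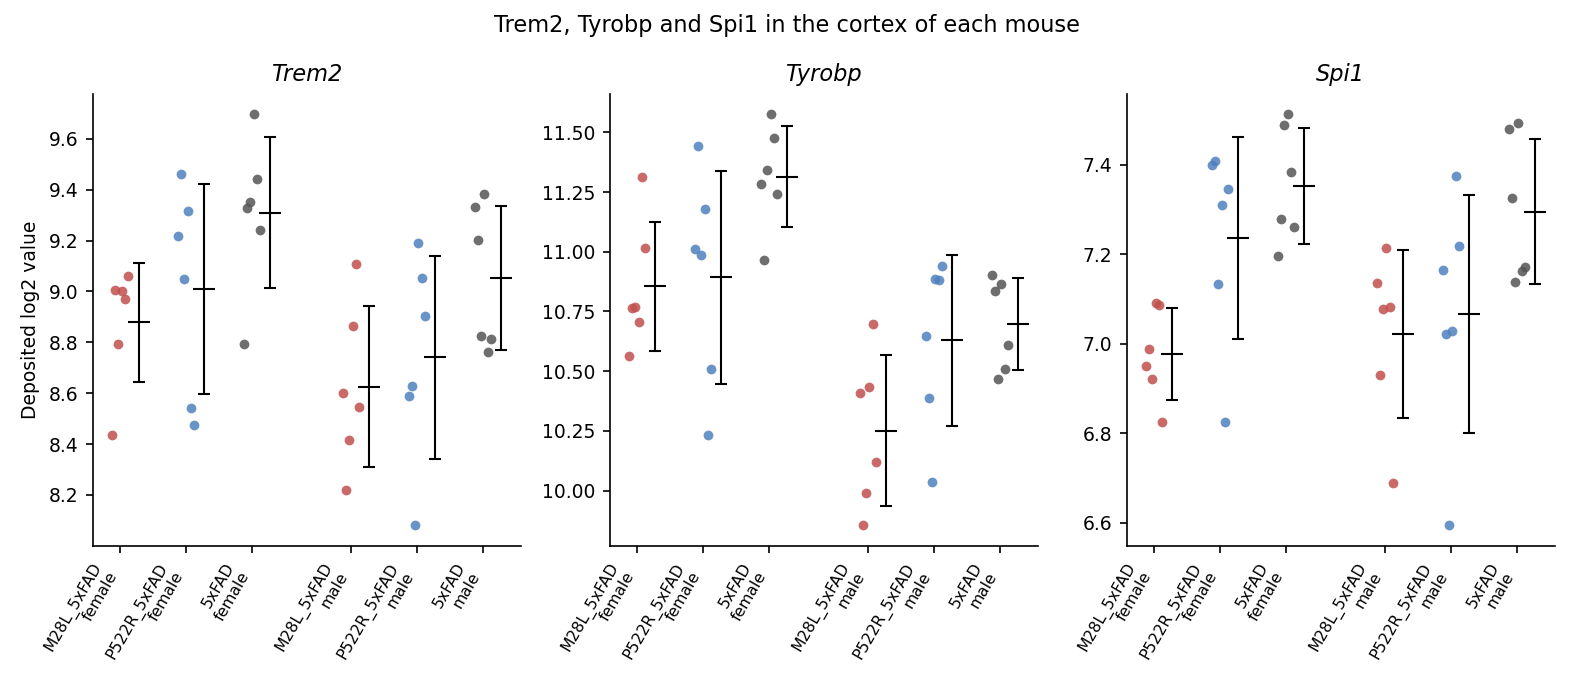
Deposited log2 value (vertical axis, a separate range for each gene) of Trem2, Tyrobp and Spi1 in each of 36 mice, by genotype and sex. Points are mice, and the bar beside them is the group mean with its SD (n = 6). The M28L_5xFAD females of Spi1, at 6.82 to 7.09, lie wholly under the 5xFAD females, at 7.19 to 7.51, while the male groups overlap. How large a share of all genes separates these females likewise is not given here.

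Centring each mouse on the median gene, on the median of each panel or by quantile normalization left all 3 genes called, with log2 differences of -0.37 to -0.43 for Trem2, -0.40 to -0.46 for Tyrobp and -0.27 to -0.33 for Spi1. Centring on Gusb and Tbp, the housekeeping genes present, moved the median of all genes to 0.17 and the members to -0.26, -0.29 and -0.16, and ended the call of Spi1 (limma adjusted p = 0.138). Gusb itself fell by 0.47 on the log2 scale in M28L_5xFAD mice (limma adjusted p = 0.000554), so that scale moves with the comparison.

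Within each sex, with 6 mice against 6, Spi1 in females was the single call for M28L_5xFAD, at -0.38 ± 0.11 (SE, limma adjusted p = 0.0424, 3.87% of all genes called). It held in 7 of 13 alternative settings, which gave -0.42 to -0.15 (limma adjusted p = 0.0133 to 0.283). That call ended without any 1 of M28L_5xFAD females 12, 28 or either numbered 14, or 5xFAD females 1189, 1190, 1248 and 1249 (differences of -0.34 to -0.39, limma adjusted p = 0.0545 to 0.103). Trem2 differed by -0.43 in females and -0.43 in males, and Tyrobp by -0.46 in females and -0.45 in males, none called (limma adjusted p = 0.115 to 0.288, and 2.05% of all genes called in males). Tyrobp in females passed in 1 of 13 alternative settings (limma adjusted p = 0.0334). Spi1 in males differed by -0.27 (limma adjusted p = 0.267). The difference of the female and male effects was 0.00 for Trem2 (95% interval -0.51 to 0.50), -0.01 for Tyrobp (-0.48 to 0.46) and -0.10 for Spi1 (-0.41 to 0.21). None of the 3 passed, among 0% of all genes called (34 of 1266 at an unadjusted p under 0.05 in limma). These intervals are wider than the effects themselves.

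In P522R_5xFAD mice, Trem2 fell 1.24-fold and Spi1 1.13-fold against the same 5xFAD mice, and Tyrobp, 1.19-fold lower, did not pass. Here 65.4% of all genes were called, 513 higher and 315 lower, so a call among these genes is near the background of the comparison. The median of all genes was 0.08.

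Trem2 had log2 values of 8.47, 9.13 and 9.46 in P522R_5xFAD females, against 8.79, 9.34 and 9.70 in 5xFAD females, and of 8.08, 8.77 and 9.19 in P522R_5xFAD males, against 8.76, 9.01 and 9.38 in 5xFAD males. The P522R_5xFAD mice spread more widely (SD 0.41 in females and 0.40 in males) than the 5xFAD mice (SD 0.30 and 0.28), a difference in spread that was not tested. The log2 difference was -0.31 ± 0.12 (SE, limma adjusted p = 0.0309), with 9 of 12 P522R_5xFAD mice under the 5xFAD mean of their sex. The call ended without any 1 of P522R_5xFAD females 8 and 60, P522R_5xFAD male 27, 5xFAD female 1248, and 5xFAD males 1177 and 1268, with differences of -0.24 to -0.28 (limma adjusted p = 0.0556 to 0.0743).

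Tyrobp had log2 values of 10.23, 11.00 and 11.45 in P522R_5xFAD females, against 10.97, 11.31 and 11.58 in 5xFAD females. In males they were 10.03, 10.76 and 10.94 in P522R_5xFAD mice and 10.47, 10.72 and 10.90 in 5xFAD mice. The female P522R_5xFAD group was lower and the male groups lay at about one level. The log2 difference over both sexes was -0.24 ± 0.12 (SE, limma adjusted p = 0.0629), and it passed under median centring (-0.28, limma adjusted p = 0.022), centring within each panel (-0.30, 0.0145) and housekeeping centring (-0.28, 0.0042), with quantile normalization at -0.19 (0.131). It also passed without any 1 of P522R_5xFAD females 24 and 54, P522R_5xFAD males 29, 30 and 31, 5xFAD female 1189 and 5xFAD male 1182 (-0.27 to -0.30, limma adjusted p = 0.021 to 0.0491). Both housekeeping genes were themselves called in this comparison, Tbp at 0.30 (limma adjusted p = 0.000542) and Gusb at -0.23 (0.0272). The housekeeping scale therefore moves with this comparison too.

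Spi1 had log2 values of 6.82, 7.33 and 7.41 in P522R_5xFAD females, against 7.19, 7.33 and 7.51 in 5xFAD females. In males they were 6.59, 7.10 and 7.38 in P522R_5xFAD mice and 7.14, 7.25 and 7.49 in 5xFAD mice. The log2 difference was -0.17 ± 0.08 (SE, limma adjusted p = 0.0486), with 9 of 12 P522R_5xFAD mice below the 5xFAD mean of their sex. P522R_5xFAD female 60 and P522R_5xFAD male 27 were the lowest of their groups for Spi1 and Tyrobp, and without either the Spi1 difference was -0.13 or -0.12, no longer called (limma adjusted p = 0.109 and 0.12). This call ended on leaving out any of 18 of the 36 mice, with the difference at -0.12 to -0.17 in those fits.

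By sex, Tyrobp fell in P522R_5xFAD females by 0.42 on the log2 scale (limma adjusted p = 0.0276, 60.2% of all genes called) and differed by -0.07 in males (0.763, 50.6% called). The female call ended without any 1 of P522R_5xFAD females 8 and 60 or 5xFAD females 1248 and 1249, at -0.29 to -0.39 (limma adjusted p = 0.0557 to 0.114). The test of that difference between the sexes gave -0.35 ± 0.23 (SE, limma adjusted p = 0.299, 20.9% of all genes called), so the effects were not shown to differ. Trem2 differed by -0.30 in females and -0.31 in males, and Spi1 by -0.12 and -0.23, none called on the deposited scale. The difference between the sexes was 0.01 for Trem2 (95% interval -0.49 to 0.52) and 0.11 for Spi1 (-0.20 to 0.42).

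Between the variants, none of the 3 genes passed: P522R_5xFAD minus M28L_5xFAD was 0.12 for Trem2 (95% interval -0.13 to 0.38, limma adjusted p = 0.381), 0.21 for Tyrobp (-0.03 to 0.44, 0.108) and 0.15 for Spi1 (0.00 to 0.31, 0.0754). In this comparison 67.6% of all genes were called. Tyrobp passed without P522R_5xFAD female 60, P522R_5xFAD male 27 or M28L_5xFAD female 20 (0.25 to 0.27, limma adjusted p = 0.0262 to 0.0497), and Spi1 without P522R_5xFAD female 60 or male 27 (0.19 and 0.20, 0.0185 and 0.0136). Both variants were set against the same 12 5xFAD mice, so their 2 sets of differences share controls. Centred on the median of each panel, the values were 0.02 for Trem2, 0.10 for Tyrobp and 0.05 for Spi1, and housekeeping centring turned Trem2 to -0.08 and Spi1 to -0.05. By sex, Spi1 was 0.26 higher in P522R_5xFAD than in M28L_5xFAD females (limma adjusted p = 0.0379, 61% of all genes called), with 5 of 6 P522R_5xFAD females above every M28L_5xFAD female, and the call ended under each of the 4 scalings (0.03 to 0.18). It also ended without any 1 of P522R_5xFAD females 8, 24, 54 and 106 or M28L_5xFAD females 12 and 28, or 1 of the 2 numbered 14 (0.23 to 0.25, limma adjusted p = 0.0547 to 0.0896). In males Tyrobp differed by 0.38 (limma adjusted p = 0.0539, 50% of all genes called), past the threshold under median centring (0.39, 0.0285) and quantile normalization (0.45, 0.0147). It also passed without any 1 of P522R_5xFAD females 8, 24 and 60, P522R_5xFAD males 23 and 27, M28L_5xFAD female 20 and M28L_5xFAD males 17 and 21 (0.38 to 0.50, limma adjusted p = 0.0103 to 0.0498). The difference of these effects between females and males was 0.02 for Trem2, -0.34 for Tyrobp and 0.21 for Spi1, none called among 23.5% of all genes.

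**Figure D2:**
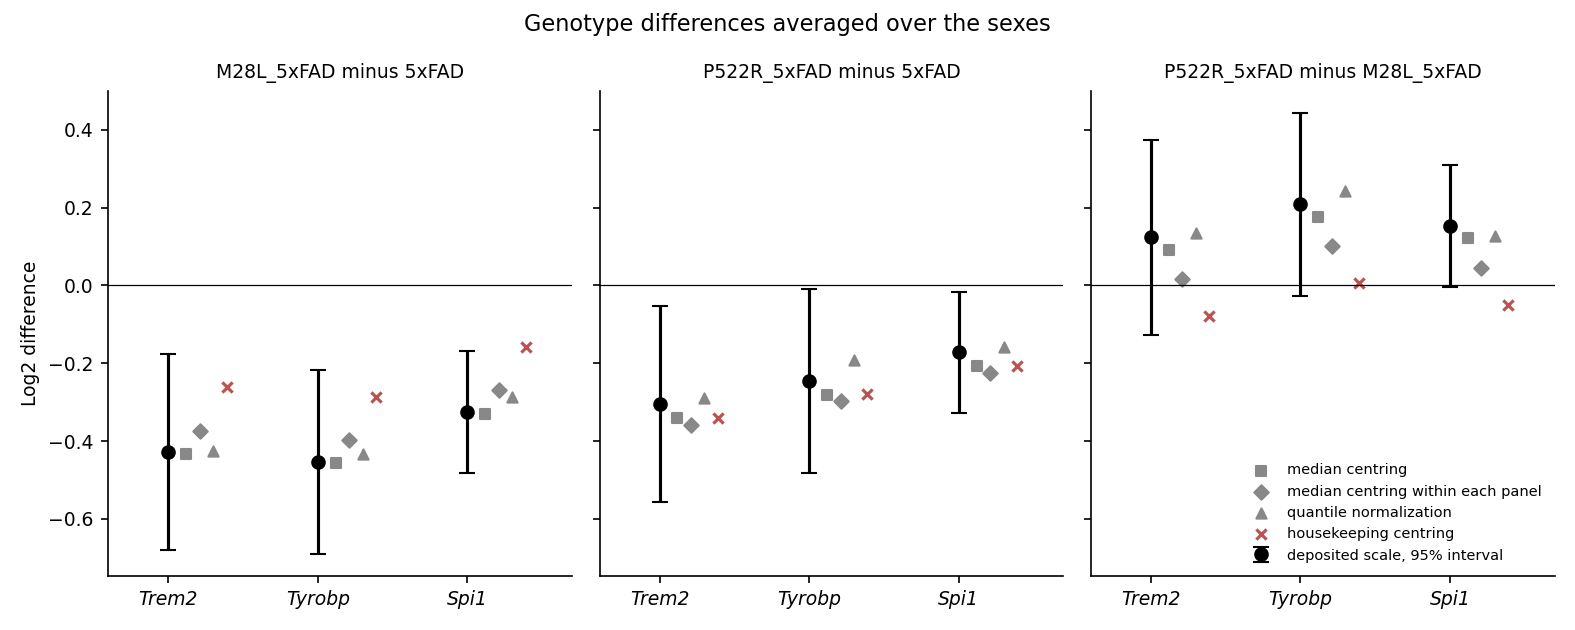
Log2 difference between genotypes, averaged over the sexes, for Trem2, Tyrobp and Spi1. Black points are limma estimates on the deposited scale with 95% intervals (12 mice per genotype), and the small marks are the same differences under 4 other scalings. In M28L_5xFAD against 5xFAD every mark is below 0, at -0.16 to -0.46, with Spi1 under housekeeping centring nearest to it, and the marks of P522R_5xFAD against M28L_5xFAD lie on both sides of 0.

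Tyrobp and Trem2 were higher in females than in males on every scale run. On the deposited scale the median gene was 0.38 lower in females, with 1060 genes lower, 34 higher and 86.4% called. Against this shift Tyrobp was higher in females than in males by 0.49 ± 0.10 (SE, 18 mice each, limma adjusted p = 1.31e-05) and Trem2 by 0.26 ± 0.10 (0.018), while Spi1 differed by 0.06 ± 0.06 (0.355). With each mouse centred on its panel median, the female minus male difference was 0.75 for Tyrobp, 0.52 for Trem2 and 0.32 for Spi1, all 3 called (limma adjusted p of 1.39e-08, 1.73e-05 and 3.76e-05). Spi1 passed under all 4 other scalings and not on the deposited scale.

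By genotype, on the deposited scale, Tyrobp was higher in females by 0.60 in M28L_5xFAD mice (limma adjusted p = 0.00157, 69% of all genes called), by 0.26 in P522R_5xFAD mice (0.148, 69.6% called) and by 0.62 in 5xFAD mice (0.00121, 72% called). With the M28L_5xFAD mice of index 7 to 9 alone, the M28L_5xFAD value was 0.36 and not called (limma adjusted p = 0.149). Under the 4 other scalings Tyrobp in P522R_5xFAD mice passed in all but the panel-centred one, and Trem2 passed in all 4 for M28L_5xFAD (0.53 to 0.64) and 5xFAD mice (0.46 to 0.64). On the deposited scale the 5xFAD females did not overlap the 5xFAD males for Tyrobp (10.97 to 11.58 against 10.47 to 10.90). For Trem2 they did overlap (8.79 to 9.70 against 8.76 to 9.38). The share of all genes that separate the sexes in this way is not given here. Trem2 was 0.25, 0.27 and 0.26 higher in females of the same genotypes and Spi1 -0.04, 0.17 and 0.06, none called on this scale. Spi1 passed in 2 of 11 alternative settings for M28L_5xFAD, 4 of 8 for P522R_5xFAD and 3 of 8 for 5xFAD mice. Trem2 passed in 3 of 8 for P522R_5xFAD mice. The median of all genes was -0.38, -0.31 and -0.41 in these comparisons.

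The levels of the 6 groups were then put in order, with an exact two-sided permutation test for each of 15 pairs of groups per gene and Benjamini-Hochberg adjustment over the 45 tests. Trem2 ran, low to high, as M28L_5xFAD males at 8.63 ± 0.32 (SD, n = 6 in each group), P522R_5xFAD males at 8.74 ± 0.40, M28L_5xFAD females at 8.88 ± 0.24, P522R_5xFAD females at 9.01 ± 0.41, 5xFAD males at 9.05 ± 0.28 and 5xFAD females at 9.31 ± 0.30. No neighbours in that order differed past the threshold, and of 15 pairs 1 did, M28L_5xFAD males and 5xFAD females (adjusted exact p = 0.0365).

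Tyrobp ran as M28L_5xFAD males at 10.25 ± 0.32, P522R_5xFAD males at 10.63 ± 0.36, 5xFAD males at 10.70 ± 0.19, M28L_5xFAD females at 10.86 ± 0.27, P522R_5xFAD females at 10.89 ± 0.45 and 5xFAD females at 11.31 ± 0.21 (SD, n = 6 in each group). No neighbours differed past the threshold, and 4 of 15 pairs did: the 5xFAD females against each of the 3 male groups (adjusted exact p = 0.0195 each) and M28L_5xFAD females against M28L_5xFAD males (0.0278). Spi1 ran as M28L_5xFAD females at 6.98 ± 0.10, M28L_5xFAD males at 7.02 ± 0.19, P522R_5xFAD males at 7.07 ± 0.27, P522R_5xFAD females at 7.24 ± 0.23, 5xFAD males at 7.30 ± 0.16 and 5xFAD females at 7.35 ± 0.13. No neighbours differed past the threshold here either. Its 3 pairs past the threshold set M28L_5xFAD females against 5xFAD females and against 5xFAD males (adjusted exact p = 0.0195 each), and M28L_5xFAD males against 5xFAD females (0.0278). With 6 mice against 6 the smallest exact p is 0.00216. Centred on the panel medians, 7 pairs passed for Trem2, 10 for Tyrobp and 7 for Spi1. The 5xFAD females remained the highest group for all 3 genes on that scale, and the order of other groups moved. For Spi1, M28L_5xFAD females stood at 7.17, above all 3 male groups, and P522R_5xFAD males were lowest at 6.90. For Trem2, M28L_5xFAD and P522R_5xFAD females, at 9.07 each, stood above 5xFAD males, at 8.92.

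Averaged over the sexes, no pair of the 3 genes passed a test of unequal genotype differences. The within-mouse log2 difference of Spi1 and Tyrobp was 0.13 ± 0.09 (SE) higher in M28L_5xFAD than in 5xFAD mice, and that of Trem2 and Tyrobp 0.02 ± 0.08 higher. In P522R_5xFAD against 5xFAD mice these differences were 0.07 ± 0.09 and -0.06 ± 0.07, each the mean of opposite signs: 0.30 in females and -0.16 in males for Spi1 and Tyrobp, and 0.12 in females and -0.24 in males for Trem2 and Tyrobp. The difference between the sexes was not tested. Of 9 such tests, for 3 pairs of genes and 3 genotype comparisons, none passed an exact permutation test within sex (p = 0.148 to 0.805 before adjustment).

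Each gene was also set against the mean of 13 measured microglial genes of the same panel, among them Csf1r, Cx3cr1, P2ry12 and the complement genes C1qa, C1qb and C1qc, which are made mainly by microglia in cortex. Trem2 and Tyrobp fell further than this mean in M28L_5xFAD mice. The 13 genes were themselves mixed against 5xFAD mice, with log2 differences of -0.81 to 0.38, 3 called lower and 1 called higher. Ptprc, at -0.81, fell further than Trem2 or Tyrobp, and Cx3cr1 differed by -0.42. A fall beyond the mean was therefore not particular to Trem2 and Tyrobp. Trem2 minus the mean was -0.22 in M28L_5xFAD mice and -0.01 in 5xFAD mice, a difference of -0.21 ± 0.07 (SE, lower in 12 of 12 mice than the 5xFAD mean of their sex, exact permutation p = 0.00384, adjusted over 9 tests 0.0189). The difference was -0.20 in females and -0.22 in males. Tyrobp minus the mean was 1.58 in M28L_5xFAD mice and 1.81 in 5xFAD mice, a difference of -0.23 ± 0.07 (SE, lower in 11 of 12, exact permutation p = 0.0042, adjusted 0.0189). Spi1 minus the mean differed by -0.11 ± 0.06 (SE, lower in 8 of 12, exact permutation p = 0.0693, adjusted 0.113). These values do not depend on how the panel was scaled, because all 13 genes share the panel of the 3.

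In P522R_5xFAD mice the same quantity differed from 5xFAD by -0.09 ± 0.06 (SE) for Trem2, -0.03 ± 0.06 for Tyrobp and 0.04 ± 0.07 for Spi1, none past the threshold (exact permutation p = 0.146 to 0.665, adjusted 0.188 to 0.665). C1qa, C1qb and C1qc were among the called falls of P522R_5xFAD mice, with C1qb at -0.77 ± 0.10 (SE, limma adjusted p = 4.57e-08). With these 3 left out of the mean, Trem2 differed by -0.20 ± 0.07 and passed (exact permutation p = 0.00928, adjusted 0.0278), and Spi1 turned to -0.07. Aif1, at -0.80 in the same comparison, stayed in the mean. Leaving out genes that fell further than the mean lowers each of these differences by construction. The pass is therefore no separate sign that Trem2 fell beyond microglial genes in P522R_5xFAD mice. For M28L_5xFAD the same step left Trem2 at -0.21 and Tyrobp at -0.23, both past the threshold (adjusted 0.0248 each). Between the variants, Tyrobp minus the mean was 0.20 ± 0.08 (SE) higher in P522R_5xFAD than in M28L_5xFAD mice, 0.01 in females and 0.40 in males (exact permutation p = 0.0341, adjusted 0.102). Without the C1q genes this value was 0.09 (adjusted 0.441), and that of Tyrobp in P522R_5xFAD against 5xFAD mice was -0.14 (0.116).

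**Figure D3:**
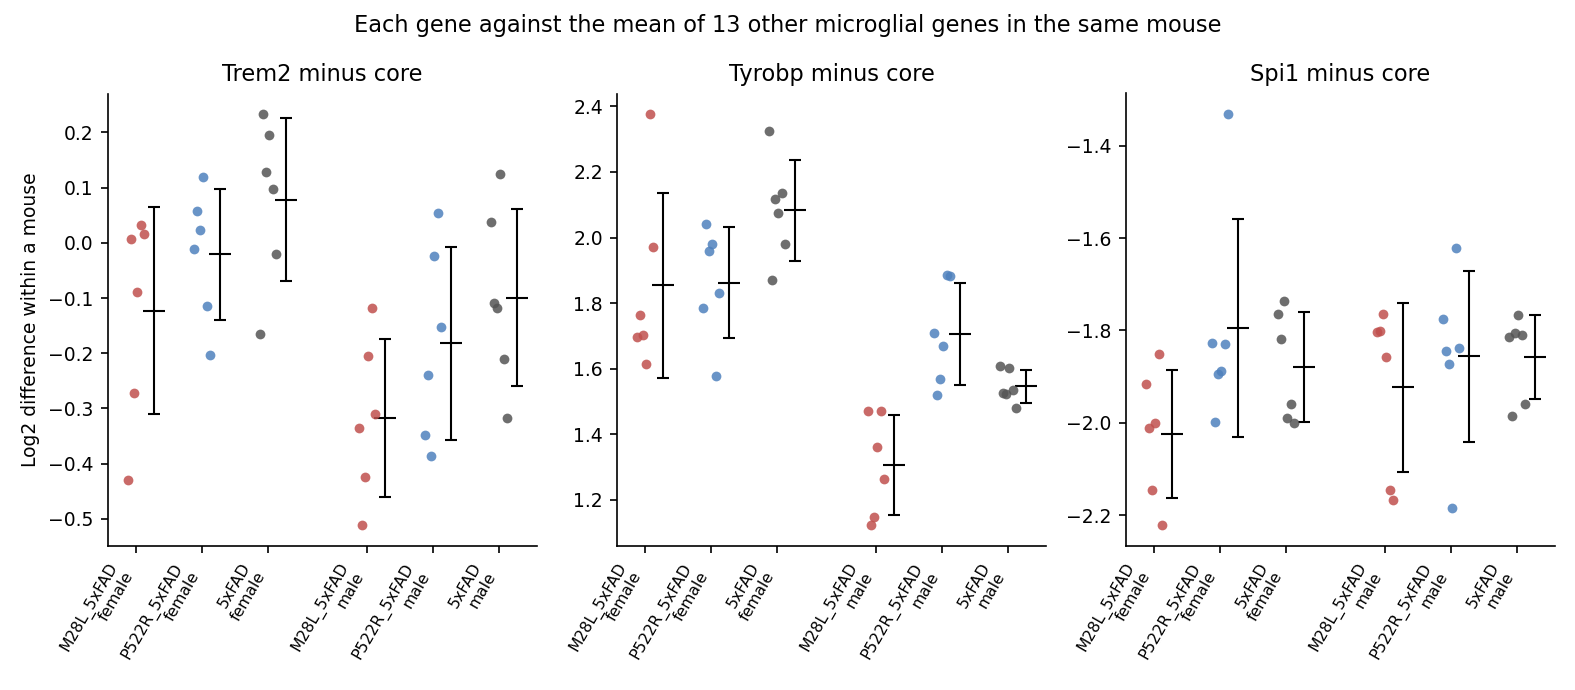
Log2 value of Trem2, Tyrobp or Spi1 minus the mean log2 value of 13 other microglial genes in the same mouse (vertical axis), by genotype and sex. Points are mice, and the bar is the group mean with its SD (n = 6). All 6 M28L_5xFAD males of Tyrobp, at 1.123 to 1.471, lie narrowly under the 5xFAD males, at 1.48 to 1.61. How large a share of other genes would separate these males likewise is not given here. The female groups of Tyrobp overlap, with M28L_5xFAD female 20, at 2.38, above every 5xFAD female (highest 2.32).

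The 3 genes varied together between mice of the same group. As deviations from the group means over 36 mice, Trem2 and Tyrobp had a Pearson r of 0.84 and a Spearman rho of 0.85 (permutation within groups, p = 1e-05 for both, the smallest that 100000 resamples can give, adjusted 3e-05 over 3 pairs). Within single groups r was 0.44 to 0.96, the lowest in 5xFAD females. Spi1 and Tyrobp had r of 0.67 and rho of 0.61 (permutation p = 0.00024 and 0.00026, adjusted 0.00036 and 0.00026), and Trem2 and Spi1 r of 0.64 and rho of 0.66 (permutation p = 0.00036 and 0.00013, adjusted 0.00036 and 0.00019). Within groups the pairs with Spi1 ran at r of 0.12 to 0.98, with M28L_5xFAD females lowest for both.

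Without the 2 mice farthest from the median of the first gene, r was 0.81 for Trem2 and Tyrobp, 0.51 for Spi1 and Tyrobp and 0.65 for Trem2 and Spi1. The genes share a library and its depth, and with each mouse centred on its panel medians r was 0.81, 0.59 and 0.54. The median r over the other 1265 genes was 0.10 for Trem2, 0.13 for Tyrobp and 0.10 for Spi1.

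**Figure D4:**
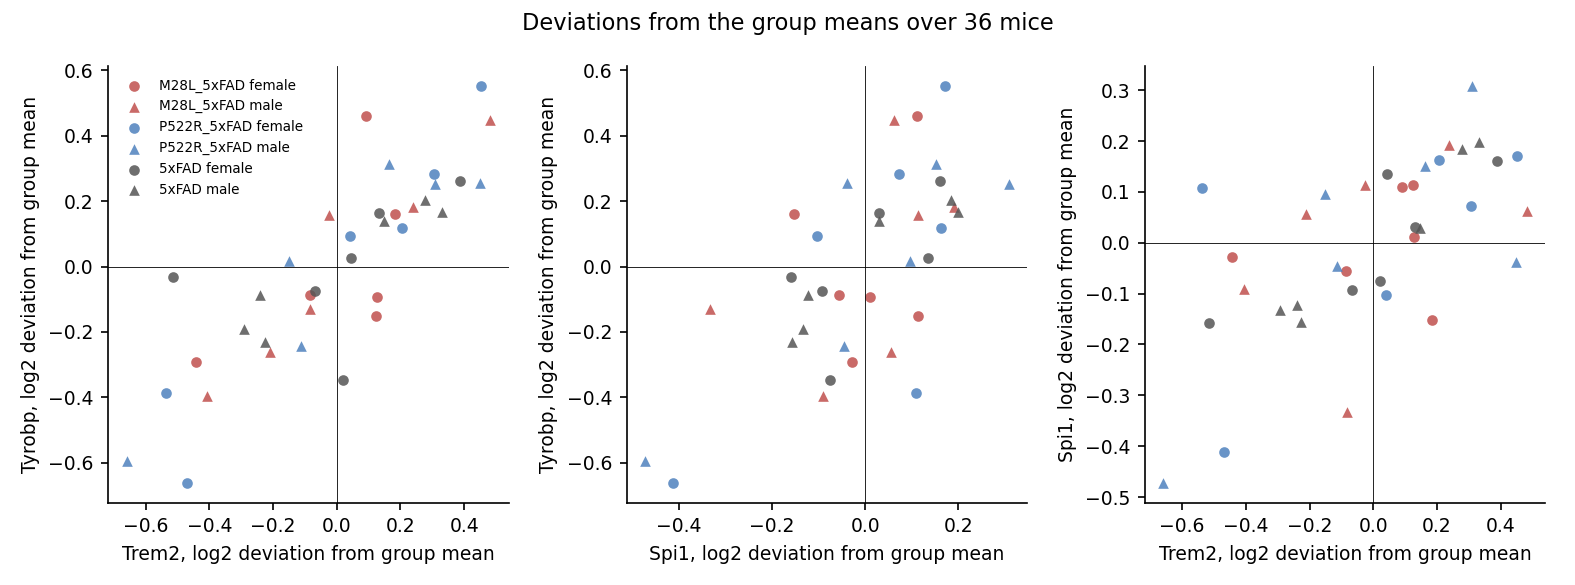
Deviation of each mouse from its group mean (log2) for the pairs Trem2 and Tyrobp, Spi1 and Tyrobp, and Trem2 and Spi1. Points are 36 mice, coloured by genotype, with circles for females and triangles for males. Trem2 and Tyrobp lie closest to a line (r = 0.84), and P522R_5xFAD female 60 and male 27 lie at the low end of all 3 plots.

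The 5 genes closest to each member by the same deviations were taken as a description. For Trem2 they included the complement gene C1qa (r = 0.91), the tetraspanin gene Cd9 (0.89), the Fc receptor-like gene Fcrls (0.88) and C1qc (0.88). For Tyrobp they included the lysozyme gene Lyz2 (0.92), Cd9 (0.91), the cathepsin gene Ctss (0.89) and the cystatin gene Cst7 (0.87). For Spi1 they were the chemokine gene Ccl3 (0.77), the astrocyte filament gene Gfap (0.76) and the genes Ctsl (0.75), Fcrls (0.73) and Ctsd (0.71), 2 of them cathepsins. Of these 5, the panel-centred scale kept 4 for Trem2, 4 for Tyrobp and 3 for Spi1. No gene reached an r over 0.8 with Spi1, against 16 with Trem2 and 18 with Tyrobp. Counting error, an SD of 0.13 beside a residual SD of 0.19, limits the r of Spi1 more than that of Trem2 or Tyrobp. These numbers of genes are therefore not like for like.

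The neighbours were also read between genotypes. C1qa differed by -0.28 in M28L_5xFAD mice (limma adjusted p = 0.068) and fell by 0.51 on the log2 scale in P522R_5xFAD mice (3.73e-05). Ccl3 fell by 1.26 in M28L_5xFAD mice (limma adjusted p = 1.31e-08) and by 0.30 in P522R_5xFAD mice (0.0433). The other neighbours named above were mixed. In M28L_5xFAD mice, where 10.3% of all genes were called, Lyz2, Cst7, Gfap, Ctsl and Ctsd fell. Cd9, Fcrls, C1qc and Ctss were not called in them. In P522R_5xFAD mice, where 65.4% of all genes were called, C1qc, Cd9 and Fcrls fell, and Ctsl rose by 0.19 (limma adjusted p = 0.0173). There Lyz2, Ctss, Cst7, Gfap and Ctsd were not called (-0.09 to 0.01).

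The wider pathway was read from gene lists, with Trem2, Tyrobp and Spi1 left out of their own lists and a background of 10.3% called in M28L_5xFAD against 5xFAD mice. The lists share genes: Clec7a, Csf1, Apoe, Axl and Cd68 also stand among the plaque-associated genes, and Ptprc, Csf1r, Itgam, Siglech, Sall1 and Cd68 among the microglia markers, so their calls count in both lists. Of 9 measured receptors that signal through DAP12 or the Fc receptor gamma chain, or are reported to work with them, 2 fell and 0 rose. The 2 were Clec7a, a receptor for fungal glucans, at -0.88 ± 0.16 (SE, limma adjusted p = 0.000351), and the immunoglobulin receptor gene Fcgr4 at -0.75 ± 0.22 (0.0262), read at a mean of 19.9 counts. Of 10 kinases, adaptors and phosphatases between receptor and phospholipase C, 1 fell, Ptprc, which encodes the phosphatase CD45 (-0.81 ± 0.16, SE, limma adjusted p = 0.00045), and housekeeping centring added 3 that rose. Of 16 genes of phospholipase C products and calcium signalling, 1 fell, Plcb4, another phospholipase C, by 0.12 (limma adjusted p = 0.0443).

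Of 11 genes for TREM2 ligands, shedding and related survival signals, 1 fell, Csf1, a growth factor for microglia (-0.41 ± 0.08, SE, limma adjusted p = 0.000645). Of 13 other myeloid transcription factor genes 3 rose and 0 fell: Bhlhe40 by 0.49, Bhlhe41 by 0.32 and the early response gene Egr1 by 0.51 (limma adjusted p of 0.000125, 0.00476 and 0.00086). Of 22 plaque-associated microglia genes 15 fell and 0 rose, with a median log2 difference of -0.47 against 0.00 over all genes, and 13 to 16 fell under the 4 other scalings. Among them were Gpnmb (-1.35), Ccl3 (-1.26) and the inhibitory receptor gene Lilrb4a (-1.05), each further from 0 than Trem2, Tyrobp or Spi1. Of 26 microglia markers 6 fell and 1 rose, with a median of -0.19, and under housekeeping centring 3 fell and 3 rose. Outside microglia, 1 of 6 astrocyte markers fell (Gfap, -0.38, limma adjusted p = 0.033, not called under housekeeping centring), 1 of 3 endothelial markers fell (the tight junction gene Cldn5, -0.55, 4.03e-05), and none of 11 neuron or 8 oligodendrocyte markers was called, apart from 1 neuron marker that rose under housekeeping centring. The part of these cells in the results was not tested.

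In P522R_5xFAD against 5xFAD mice, where 65.4% of all genes were called, members of every one of these lists were called. The receptors had 3 higher and 1 lower of 9, with the natural killer receptor gene Klrk1 at 1.03 and Trem1 at 1.07, both read at under 10 counts on average (means of 9.69 and 5.83), and Clec7a at -0.54. Under the 4 other scalings 1 or 2 of the receptors were higher and 2 or 3 lower. The kinases and adaptors had 2 higher and 5 lower of 10 (0 to 3 higher and 4 to 7 lower under the other scalings), with the phosphoinositide 3-kinase subunit gene Pik3r1 lowest at -0.76 ± 0.07 (SE, limma adjusted p = 8.51e-11). The calcium list had 10 higher and 3 lower of 16, with 6 higher under median and under housekeeping centring. The ligand and shedding list had 8 higher and 2 lower of 11, with the sheddase gene Adam10 at -0.40 and 5 higher under housekeeping centring, and the transcription factors 6 and 1 of 13, with Egr1 at 1.03. The plaque-associated genes had 7 higher and 5 lower of 22 with a median of -0.03, and the microglia markers 4 higher and 9 lower of 26 with a median of -0.08, against 0.08 over all genes.

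Between the variants, in P522R_5xFAD against M28L_5xFAD mice, 17 of 22 plaque-associated genes were higher and 2 lower, beside 67.6% of all genes called, with a median of 0.55 against 0.10 over all genes (13 to 17 higher under the 4 other scalings). Itgax, which encodes the integrin CD11c, was higher by 2.25 ± 0.22 (SE, limma adjusted p = 6.29e-11) and Lilrb4a by 1.20 ± 0.13 (1.01e-09). Trem2, at 0.12, Tyrobp, at 0.21, and Spi1, at 0.15, were not called in the same comparison. The receptor list had 2 of 9 higher, Csf1r at 0.50 and Klrk1 at 0.78, and 0 lower, a smaller share than the 67.6% of all genes. Centring within each panel and housekeeping centring each added 1 lower.

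**Figure D5:**
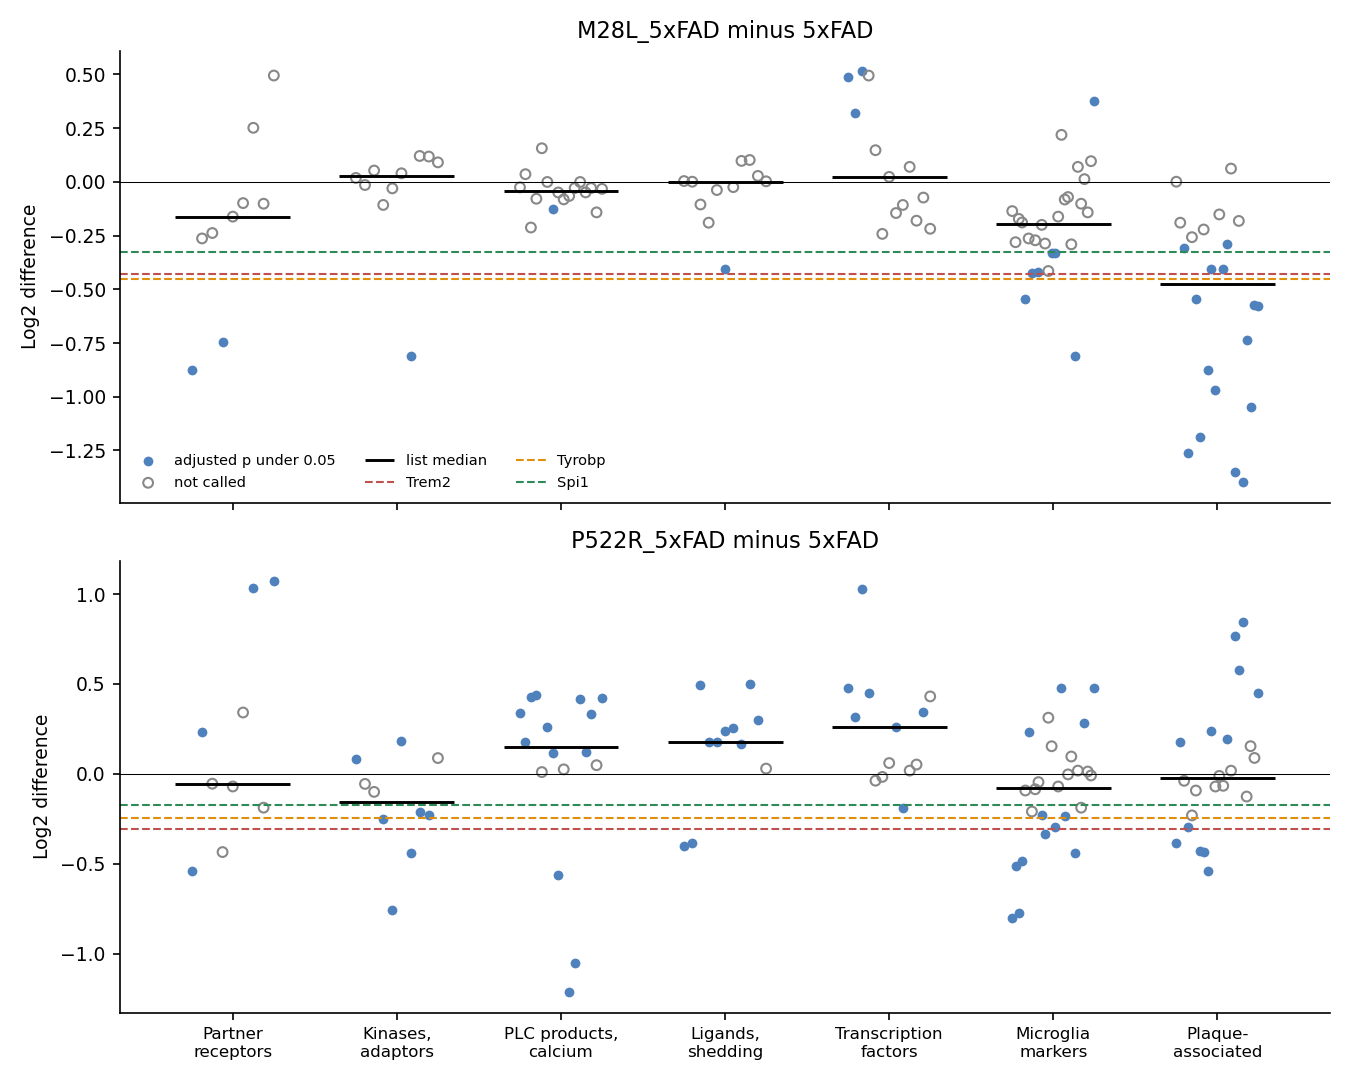
Log2 difference (vertical axis, a separate range per plot) of the measured genes of 7 lists, without Trem2, Tyrobp and Spi1, in M28L_5xFAD against 5xFAD (top) and P522R_5xFAD against 5xFAD (bottom). Filled points were called by limma (adjusted p under 0.05), black lines are list medians and dashed lines the values of the 3 genes. In the top plot the plaque-associated genes have a median of -0.47, near Trem2 at -0.43 and Tyrobp at -0.45.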

How the data were processed

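Cortical RNA from PureLink extraction was hybridised to the nCounter probes, per the labels' protocols. Both panels stand in a single table of log2 values that the authors deposited, with a column for every mouse. How they normalized them is not given in the sources. Of 1517 rows, 251 named no gene and were left out. All values (100.0%) were whole multiples, within 0.05, of a step per mouse and panel. This gave back counts, used for depth and low values only. Totals were 237563 to 1957325 counts per mouse and panel, and counting errors cover counting only.

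Differences were tested with limma 3.58.1 (R 4.3.3): a mean per genotype and sex over 36 mice, eBayes with a trend, two-sided p-values adjusted by Benjamini-Hochberg over 1266 genes, threshold 0.05, no pseudocount. The fit was tested on simulated mice. Other tests were exact permutations over mice, and correlations used 100000 permutations within groups. Alternatives were other scalings, a filter, a pseudocount of 20, other variance models, subsets of mice, an index block and leaving out each mouse. Panel centring of the group order and the scalings of the list counts were chosen after seeing the data.

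Nothing but the animal numbers in the labels says that the mice are separate animals, so p-values measure the spread between these samples. Named genes were the 3 members, up to 3 called genes with the smallest p per list and comparison, some of them not written out here, and the 5 genes with the highest r to each member. A gene among these is not reported here. The members and lists were chosen with earlier results of these data known. Within a group each mouse has a number of its own, except that 2 M28L_5xFAD females share number 14, and number 21 is given to a male of each variant. The counts of the females numbered 14 differed like those of other pairs of a group, and both were kept.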

Additional observations from a re-analysis of the deposited data

How the results depend on the processing

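In M28L_5xFAD against 5xFAD mice, Trem2 stayed below 0 under all 14 alternatives and was called in 10, Tyrobp in 11 and Spi1 in 13. The calls held in all 36 fits that left out 1 mouse. In P522R_5xFAD against 5xFAD mice the differences stayed below 0 under all 11 alternatives, with 9 calling Trem2, 3 Tyrobp and 8 Spi1. The cause of the changes below was not tested.

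Tyrobp in P522R_5xFAD against 5xFAD mice passed under median centring (-0.28), centring within each panel (-0.30) and housekeeping centring (-0.28). Housekeeping centring ended the call of Spi1 in M28L_5xFAD mice (-0.16) and turned P522R_5xFAD minus M28L_5xFAD to -0.079 for Trem2 and -0.049 for Spi1. Without a term for sex, the same differences lost their calls for Trem2 (-0.43) and Tyrobp (-0.45) in M28L_5xFAD and for Trem2 (-0.31) and Spi1 (-0.17) in P522R_5xFAD. With M28L_5xFAD left out of the fit, Spi1 in P522R_5xFAD was not called (-0.17). With the M28L_5xFAD mice of index 1 to 3 alone, Trem2 (-0.38) and Tyrobp (-0.40) were not called, and with those of index 7 to 9 alone Trem2 (-0.47) was not, each with fewer mice. Without the C1q genes in the microglial mean, Trem2 minus that mean passed in P522R_5xFAD (-0.20) and Spi1 turned to -0.070, a step that lowers both by construction. Pairs of groups past the threshold were 7, 10 and 7 for Trem2, Tyrobp and Spi1 after panel centring, against 1, 4 and 3.

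Mice that share an index number did not deviate together (r of -0.26 to 0.21 over 22 pairs, 4 over 0.1), so the number was not taken to pair them. With it as a replicate block the calls were lost for Trem2 (-0.39) and Tyrobp (-0.44) in M28L_5xFAD and for Trem2 (-0.25) and Spi1 (-0.17) in P522R_5xFAD. The block turned Tyrobp in P522R_5xFAD minus M28L_5xFAD females to -0.015, the M28L_5xFAD by sex differences to 0.24 for Trem2 and 0.29 for Tyrobp, and the variant by sex difference of Trem2 to -0.072.

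Signs also turned for values not called on the deposited scale. P522R_5xFAD minus M28L_5xFAD in females became, for Tyrobp, -0.041 (median centring), -0.095 (panel), -0.19 (housekeeping) and -0.14 (index 1 to 3), and for Trem2 -0.00055 (panel), -0.095 (housekeeping) and -0.0020 (index 1 to 3). In males it became -0.036 (panel) and -0.13 (housekeeping) for Spi1 and -0.062 (housekeeping) for Trem2. Tyrobp in P522R_5xFAD males became 0.017 under quantile normalization. Female minus male Spi1 in M28L_5xFAD mice became 0.31 (median), 0.24 (panel), 0.36 (quantile) and 0.27 (housekeeping).

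The M28L_5xFAD by sex difference became, for Trem2, 0.0078 (panel), 0.016 (quantile), 0.10 (housekeeping) and 0.17 (index 1 to 3), for Tyrobp 0.0010, 0.0034, 0.098 and 0.23 under the same settings and 0.0067 with the mice numbered 14 as their mean, and for Spi1 0.0070 (housekeeping). The P522R_5xFAD by sex difference became, for Trem2, -0.11 (median), -0.025 (panel) and -0.069 (quantile), and for Spi1 -0.016 (median) and -0.044 (quantile). The variant by sex difference of Trem2 became -0.078 (median), -0.033 (panel), -0.086 (quantile), -0.033 (housekeeping) and -0.16 (index 1 to 3).

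Leaving out 1 mouse at a time, P522R_5xFAD minus 5xFAD spanned -0.36 to -0.24 for Trem2 (called in 30 of 36 fits), -0.30 to -0.18 for Tyrobp (called in 7) and -0.20 to -0.12 for Spi1 (called in 18). The Spi1 call ended without M28L_5xFAD females 16 or either 14, M28L_5xFAD males 10, 11, 15 or 21, P522R_5xFAD females 49 or 60, P522R_5xFAD males 23, 27 or 29, 5xFAD females 1190, 1248 or 1249, and 5xFAD males 1177, 1181 or 1268. P522R_5xFAD minus M28L_5xFAD spanned 0.15 to 0.27 for Tyrobp and 0.12 to 0.20 for Spi1, in females -0.072 to 0.17 for Tyrobp and in males -0.020 to 0.14 for Spi1. Tyrobp in P522R_5xFAD males spanned -0.13 to 0.050. The M28L_5xFAD by sex difference spanned -0.11 to 0.092 for Trem2 and -0.10 to 0.078 for Tyrobp, the P522R_5xFAD one -0.12 to 0.12 for Trem2, and the variant one -0.11 to 0.12 for Trem2.

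All genes called in M28L_5xFAD numbered 130, against 306 under housekeeping centring, 30 without sex and 77 with index 1 to 3. Female minus male calls numbered 1094, against 627 (panel), 693 (quantile) and 601 (housekeeping). Counting error limits Spi1 most of the 3 genes.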
